A study of Mus musculus with 18 samples.

Results

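The mRNA of 6 genes of stressed skin was followed in the denervated mouse whisker pad: the alarmin genes S100a8 and S100a9 and the stress keratin genes Krt6a, Krt6b, Krt16, and Krt17. They are 6 of 35150 genes in the table, and the level of each was the sum of its transcripts in TPM, a unit of transcript abundance that corrects for transcript length and depth. The set was selected on the day 7 difference of S100a8 between the sides, so day 7 differences are given as values without a test. Skin with its muscle was sampled as 1 piece with a 3 mm punch from both rostral whisker pads of 9 mice, 3 at each of days 1, 3, and 7 after surgery, which gave 18 libraries. On the right side 2 facial nerve branches, the buccal and the superior marginal, were cut, and this side is called denervated. On the left side the skin was opened and closed again with the nerve intact, and this side is called sham. All 18 libraries therefore came from mice with a skin incision on both sides of the face, and the side of the face cannot be told apart from the lesion. The mice were adults, males and females were used in the study, and the strain and genotype of these 9 mice are not given in the sources used here. No sample from a mouse without surgery was analysed here.

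S100a8 and S100a9 encode small calcium-binding proteins that pair into calprotectin, which binds zinc and manganese and, once released, acts as a danger signal on receptors such as TLR4. Neutrophils and monocytes store them in large amounts, and keratinocytes make them when the epidermis is wounded or inflamed. Keratins 6A, 6B, 16, and 17 are filament proteins that the epidermis between hairs switches on after barrier damage, while the hair follicle makes keratins 6A, 16, and 17 without injury.

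The genes fall into 3 neighbourhoods of the mouse genome (build GRCm38). S100a8 lies at chr3:90668978-90670035 on the plus strand and S100a9 at chr3:90692632-90695721 on the minus strand. Krt6b lies at chr15:101676023-101680287 and Krt6a beside it at chr15:101689910-101694307, both on the minus strand. Krt16 and Krt17 lie at chr11:100246091-100248902 and chr11:100256217-100261029, also on the minus strand.

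Krt6a and Krt6b are nearly the same sequence, which bears on how reads could be split between them. Their coding sequences, taken as the longest open reading frames of 1662 and 1665 bases, were identical at 97.6% of aligned positions, with 1 identical run of 280 bases. The 60 coding bases where they differ most, positions 817 to 876 counted from the start codon in both genes, are shown with the 10 differing bases in capitals.
Krt6a: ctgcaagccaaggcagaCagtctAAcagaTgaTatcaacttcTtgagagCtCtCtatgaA
Krt6b: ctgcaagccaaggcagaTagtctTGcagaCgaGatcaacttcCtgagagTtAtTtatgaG

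The reads had been assigned to transcripts by words of bases shared between read and transcript, so shared words were counted for the main transcript of each gene. Of the 31-base words of Krt6a, 66.6% also occurred in transcripts of other genes, and 49.3% occurred in Krt6b. For Krt6b 57.0% were shared, for Krt16 51.9%, and for Krt17 15.8%, the last mostly with Krt14. S100a8 and S100a9 shared 0 of their 456 and 482 words with any other gene. Levels of Krt6a, Krt6b, and Krt16 thus depend on how shared reads were divided, while those of S100a8 and S100a9 do not share reads at this word length.

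The promoters of S100a8 and S100a9 are shown because these neighbours did not keep a fixed ratio, as described below. The RefSeq promoter table used here held 2 of the 6 genes, and the 250 bases before each RefSeq start are printed 5′ to 3′ on the gene's strand (GRCm38.p6). They span chr3:90668821-90669070 for S100a8, whose RefSeq start lies 93 bases inside the GENCODE gene model, and chr3:90695722-90695971 for S100a9. Capitals mark matches to TATAAA, a core promoter box, or TTGCNNAA (a C/EBP motif).
S100a8: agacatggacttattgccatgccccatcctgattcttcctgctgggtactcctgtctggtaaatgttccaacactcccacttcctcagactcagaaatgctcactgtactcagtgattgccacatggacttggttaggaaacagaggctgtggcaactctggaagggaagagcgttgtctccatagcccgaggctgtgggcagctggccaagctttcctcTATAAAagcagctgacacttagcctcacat
S100a9: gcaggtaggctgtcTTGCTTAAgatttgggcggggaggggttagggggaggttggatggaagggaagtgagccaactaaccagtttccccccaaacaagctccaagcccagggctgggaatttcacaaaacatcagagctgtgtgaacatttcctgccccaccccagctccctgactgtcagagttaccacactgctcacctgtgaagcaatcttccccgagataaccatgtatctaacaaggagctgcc

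S100a8 held 1 TATAAA match, 30 bases before the start, and S100a9 held 1 TTGCNNAA match, 236 bases before the start. The motif TGANTCA (AP-1) had no match in either window. On both strands, 12.4% of 32851 promoter windows of this length held TATAAA, 9.56% TTGCNNAA, and 6.75% TGANTCA. The matches are letters in these windows, with no measurement of binding.

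The biopsies held both tissues in every library: the 7 basal keratinocyte markers together (Krt5, Krt14, Krt15, and others) reached 4227 to 8438 TPM, and the 10 skeletal muscle markers 5009 to 30552 TPM. Both libraries of day 1 mouse 1 stood apart in muscle, with 5009 TPM (sham) and 7506 TPM (denervated) against 14516 TPM or more in the other 16, and they also had the lowest S100a8 of their groups. A keratin pair of moist epithelia separated 5 libraries from the other 13. Krt13, a keratin of the lining of the mouth and lips, was at 112 to 2201 TPM in day 1 sham replicate 3, day 1 denervated replicates 2 and 3, day 3 sham replicate 3, and day 7 sham replicate 2, and at 0.165 to 9.15 TPM in the others. Its partner Krt4 was high in the same libraries, between 18.9 and 1488 TPM. These libraries were not spread evenly over the groups, so the differences of days 1 and 3 that they touch are also given without them. Their part in any difference between the groups was not tested.

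S100a8 was higher on the denervated side in all 9 mice. At day 1 the sham sides of replicates 1, 2, and 3 were at 15.8, 21.4, and 453 TPM and the denervated sides at 71.6, 1319, and 830 TPM. At day 3 the sham sides were at 136, 87.4, and 23.9 TPM and the denervated sides at 1232, 1156, and 339 TPM. At day 7 the sham sides were at 180, 40.8, and 66.8 TPM and the denervated sides at 1530, 1297, and 2036 TPM. The groups overlapped at day 1, where sham replicate 3 was above denervated replicate 1, and were separate at days 3 and 7.

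The size of the S100a8 difference varied most between the mice of day 1, from 1.83-fold to 61.7-fold. The mean within-mouse difference was 2.98 ± 2.62 on the log2(TPM + 0.5) scale (SD, n = 3 mice). This difference did not pass the limma test without regard to mouse (SE 1.61, adjusted p = 0.999) or with mice blocked (adjusted p = 0.790). It was 2.11 without day 1 sham replicate 1 and 4.26 without denervated replicate 1, the libraries low in muscle markers. Without the 3 day 1 libraries high in Krt13, which leaves 15.8 and 21.4 against 71.6 TPM, it was 1.93, and the same setting gave 0.76 for S100a9, 0.31 for Krt6a, 0.26 for Krt16, and 0.31 for Krt17 (adjusted p = 1.00 for each). At day 3 the 3 mice agreed closely, with folds of 9.04, 13.2, and 14.2 and a mean log2 difference of 3.56 ± 0.34 (SD, n = 3 mice). Without regard to mouse this difference had a limma adjusted p of 0.098, which misses the 0.05 threshold, and it was 0.0055 when mice were blocked. Without day 3 sham replicate 3 the log2 difference was 2.84 (limma adjusted p = 0.171), and in the block fit on the other 2 mice it was 3.45 (adjusted p = 0.042). The day 7 folds were 8.52, 31.8, and 30.5, with a mean log2 difference of 4.33 that is a description only.

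**Figure D1:**
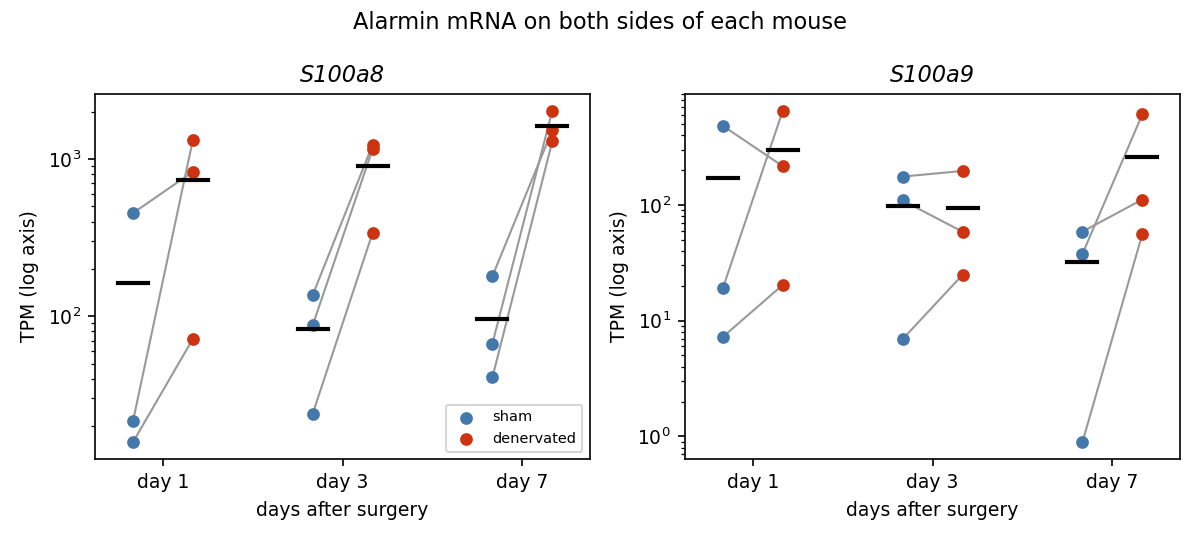
TPM of S100a8 and S100a9 (log axes) on the sham (blue) and denervated (red) sides at days 1, 3, and 7; grey lines join the sides of 1 mouse and black bars are means of 3 mice. S100a8 lines go up in all 9 mice, and S100a9 lines go up in 7 of 9.

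The main S100a8 transcript of 486 bases made up 97.4% of the gene's TPM on average, and 91.5% or more in each library. The other annotated transcript keeps an intron. The differences above are thus those of the protein-coding mRNA. In bulk tissue, more cells that make S100a8 and more S100a8 RNA per cell cannot be told apart.

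S100a9 followed S100a8 loosely and was higher on the denervated side in 7 of 9 mice. At day 1 its sham sides were at 7.24, 19.1, and 482 TPM and its denervated sides at 20.4, 653, and 216 TPM. At day 3 the sham sides were at 176, 109, and 6.92 TPM and the denervated sides at 196, 58.6, and 24.9 TPM. At day 7 the sham sides were at 58.7, 0.890, and 37.6 TPM and the denervated sides at 111, 55.8, and 605 TPM. The groups overlapped at each of the 3 days.

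The log2 difference of S100a9 was 1.78 (SE 1.86) at day 1 and 0.35 (SE 1.31) at day 3, with limma adjusted p = 0.999 and 0.944. At day 3 it was -1.06 without sham replicate 3, a Krt13-high library, which turned its direction. At day 7 it was 3.42, and 1.72 without sham replicate 2, the library with 0.890 TPM. Unlike S100a8, S100a9 had no day on which the within-mouse differences were alike in size, and 1 mouse at day 1 and 1 at day 3 had more S100a9 on the sham side.

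The ratio of S100a8 to S100a9 TPM, chosen after the values were seen and so given without a test, also differed between the sides. On the sham side it was 2.18, 1.12, and 0.940 at day 1, 0.776, 0.800, and 3.46 at day 3, and 3.06, 45.8, and 1.78 at day 7. On the denervated side it was 3.52, 2.02, and 3.85 at day 1, 6.27, 19.7, and 13.6 at day 3, and 13.8, 23.2, and 3.36 at day 7. In 8 of 9 mice the ratio was higher on the denervated side, and the exception, day 7 replicate 2, is the mouse with the lowest S100a9. Over the 18 libraries, which come in pairs from 9 mice, S100a8 and S100a9 had a Pearson r of 0.75 on the log2 scale.

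**Figure D2:**
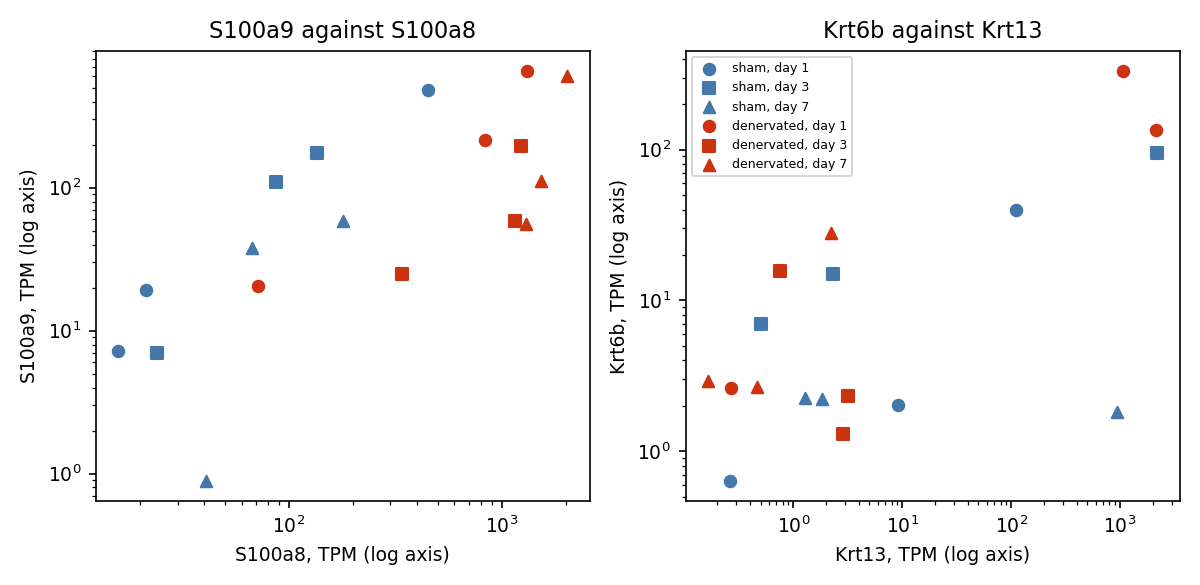
TPM of S100a9 against S100a8 (left) and of Krt6b against Krt13 (right) on log axes, 1 point per library, blue for sham and red for denervated, with circles for day 1, squares for day 3, and triangles for day 7. Denervated day 3 libraries lie to the right of the sham libraries with the same S100a9, and 4 of the 5 libraries with at least 100 TPM of Krt13 have the 4 highest Krt6b values.

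Krt17 was the most abundant of the 4 keratins and Krt6b the least in each of the 18 libraries. Krt17 ranged 3.15-fold over all libraries and Krt6a 3.10-fold, while Krt16 ranged 11.9-fold and Krt6b 519-fold. Krt6b and Krt16 thus spanned a wider range than Krt6a and Krt17.

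Krt6b, which pairs with keratins 16 and 17 in stressed epidermis, had side differences of opposite sign at days 1 and 3. At day 1 the sham sides were at 0.637, 2.02, and 39.5 TPM and the denervated sides at 2.61, 330, and 134 TPM. At day 3 the sham sides were at 14.9, 7.02, and 95.5 TPM and the denervated sides at 2.32, 1.30, and 15.7 TPM. At day 7 the sham sides were at 2.25, 1.82, and 2.23 TPM and the denervated sides at 2.67, 2.94, and 28.1 TPM. The denervated side had more Krt6b in each mouse at days 1 and 7 and less in each mouse at day 3, although the groups overlapped at days 1 and 3.

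The day 1 log2 difference of Krt6b was 3.41 (SE 2.06, limma adjusted p = 0.999). It was 0.88 without the 3 libraries of that day with at least 100 TPM of Krt13, which left 1 denervated library, assumed to vary like the sham libraries. At day 3 the sham side was 6.41, 5.42, and 6.10 times the denervated side in the 3 mice, and the mean log2 difference was -2.36 ± 0.26 (SD, n = 3 mice). The limma adjusted p was 0.416 without regard to mouse and 0.0078 when mice were blocked. Without both libraries of mouse 3, whose sham side held 2201 TPM of Krt13, the blocked log2 difference was -2.26 (adjusted p = 0.055). The difference was thus of nearly equal size in the mice without much Krt13 on either side. Without the sham library alone and without the block it was -1.31 (adjusted p = 0.642).

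Krt6b followed Krt13 over the libraries with a Pearson r of 0.69 and a Spearman rho of 0.38 (18 libraries from 9 mice). The 5 libraries with at least 100 TPM of Krt13 had 1.82 to 330 TPM of Krt6b with a median of 95.5, and the other 13 had 0.637 to 28.1 TPM with a median of 2.61. Day 7 sham replicate 2 was the exception, with 937 TPM of Krt13 and 1.82 TPM of Krt6b. Krt6b made up 28.7% of the summed Krt6a and Krt6b TPM in day 1 denervated replicate 2 and under 1% in 10 libraries.

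Krt16, the partner of keratin 6 in stressed epidermis, had the same signs as Krt6b at days 3 and 7 but smaller differences. At day 1 the sham sides were at 119, 67.0, and 166 TPM and the denervated sides at 107, 537, and 211 TPM. At day 3 the sham sides were at 151, 203, and 112 TPM and the denervated sides at 102, 134, and 78.3 TPM. At day 7 the sham sides were at 45.1, 47.6, and 118 TPM and the denervated sides at 64.9, 73.7, and 123 TPM. The groups overlapped at all 3 days.

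Within the mice of day 3 Krt16 was lower on the denervated side by nearly the same log2 amount, -0.56 ± 0.04 (SD, n = 3 mice). The limma adjusted p of this difference was 0.414 without regard to mouse and 0.059 when mice were blocked, so it passed in neither fit. Without sham replicate 3, high in Krt13, it was -0.77 (adjusted p = 0.315). At day 1 the log2 difference was 1.06 (SE 0.62, adjusted p = 0.999), of which the 8.02-fold difference in replicate 2 was the largest. At day 7 it was 0.40.

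Krt6a and Krt17 had no side difference that passed the limma test at day 1 or day 3. Krt6a was at 265 to 778 TPM in the 9 sham libraries (median 524) and at 312 to 822 TPM in the 9 denervated libraries (median 500.3). Its log2 differences were 0.63 (SE 0.40) at day 1 and -0.16 (SE 0.14) at day 3, with limma adjusted p = 0.999 and 0.689, and -0.14 at day 7. Without day 3 sham replicate 3 the day 3 values were -0.12 for Krt6a and 0.025 for Krt17. Krt6a was higher on the denervated side in 5 of 9 mice, with both signs at each day. At day 1 its denervated side was 0.726, 3.10, and 1.63 times the sham side in replicates 1, 2, and 3.

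Krt17 was at 1397 to 2775 TPM on the sham side and at 880 to 2447 TPM on the denervated side. Its log2 difference was 0.13 (SE 0.30) at day 1 and -0.04 (SE 0.18) at day 3, with limma adjusted p = 0.999 and 0.956, and both turned sign when single libraries were left out. Its day 7 sham sides were at 1654, 1552, and 1482 TPM and the denervated sides at 1254, 1441, and 880 TPM. The day 7 groups did not overlap, and Krt17 was lower on the denervated side in each of the 3 mice, with a mean log2 difference of -0.42.

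**Figure D3:**
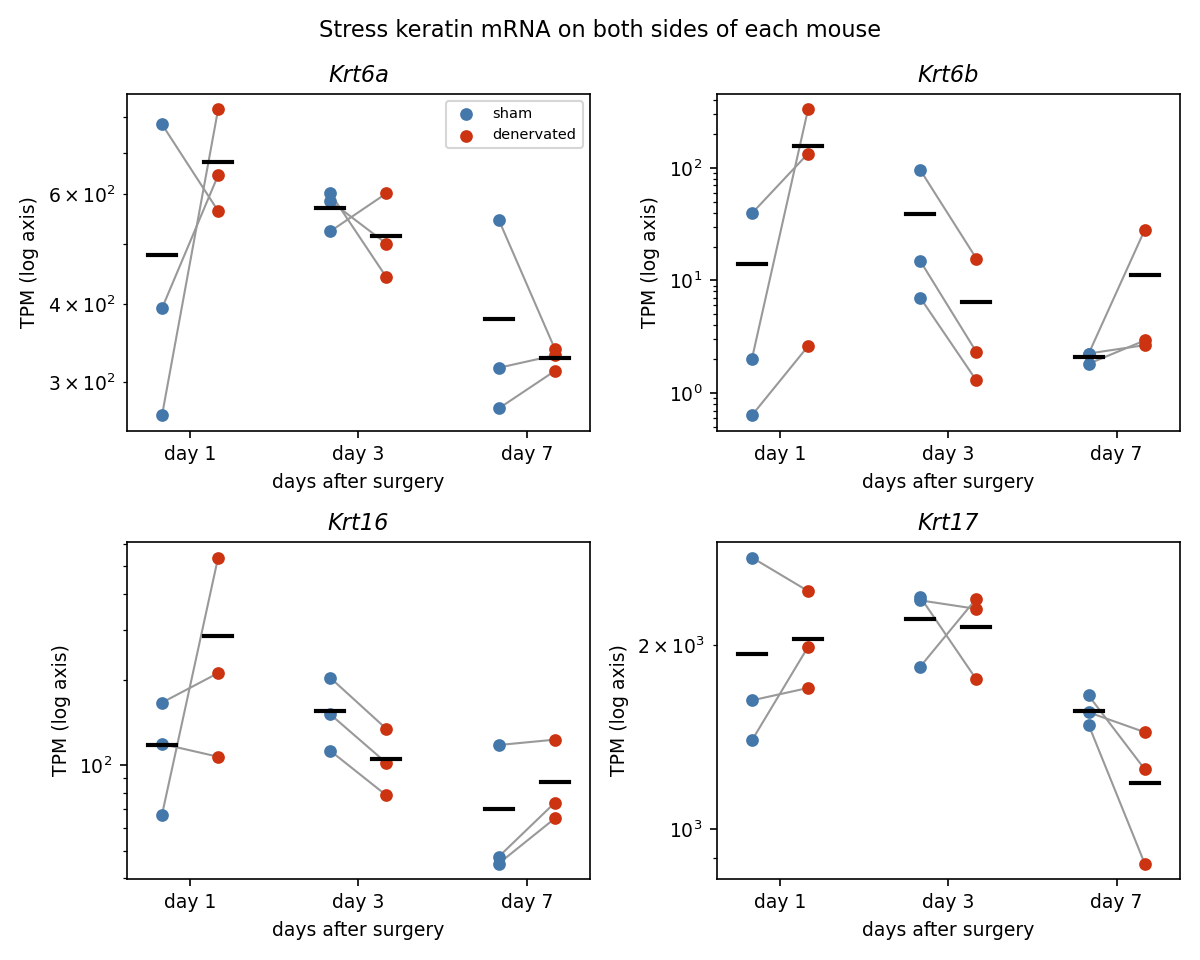
TPM of Krt6a, Krt6b, Krt16, and Krt17 (log axes) on the sham (blue) and denervated (red) sides at days 1, 3, and 7; grey lines join the sides of 1 mouse and black bars are means of 3 mice. At day 3 all 3 lines of Krt6b and of Krt16 go down from sham to denervated, and at day 7 all 3 go up.

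Read as a set, the 6 genes did not share 1 direction at days 3 and 7. All 6 passed the filter on low values in each comparison. At day 1 all 6 means were higher on the denervated side, with a median log2 difference of 1.42 against 0.01 over all 14776 genes tested, and 0 of 6 had groups that did not overlap (of all genes, 5.61% were higher and 3.95% lower without overlap). None passed the limma test at day 1, where 0% of all genes passed. Without regard to mouse, an unadjusted p under 0.05 was reached by 0 of 6 and by 4.29% of all genes. In the day 1 limma fit with mice blocked, S100a8 and Krt6b had an unadjusted p under 0.05, as 913 of the 14776 genes had. Neither passed there after adjustment. At day 3 S100a8 and S100a9 were higher and the 4 keratins lower, with a median of -0.10 against -0.01 over 14943 genes. The only member without overlap at day 3 was S100a8, and 11.7% of all genes were higher and 9.82% lower in that way. Without regard to mouse 0 of 6 passed the limma test at day 3, where 1.45% of all genes did, and S100a8 alone had an unadjusted p under 0.05, as 14.7% of all genes had. With mice blocked, S100a8 and Krt6b passed. In that fit S100a8, Krt6b, and Krt16 had an unadjusted p under 0.05, as 2793 of the 14943 genes had.

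At day 7, the comparison that led to the choice of the set, 3 of 6 had groups that did not overlap. S100a8 and Krt6b were higher without overlap, as were 10.6% of all 15081 genes, and Krt17 was lower without overlap, as were 7.06%. The median log2 difference of the 6 was 0.89 against 0.04 over all genes, and S100a8, S100a9, and Krt6b were at least 2-fold higher on the mean log2 scale, as were 2.13% of all genes. The Krt6b value rested on replicate 3, at 12.6-fold, since replicates 1 and 2 were at 1.19-fold and 1.61-fold. Without denervated replicate 3 the mean log2 difference of Krt6b was 0.35, which is under 2-fold.

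**Figure D4:**
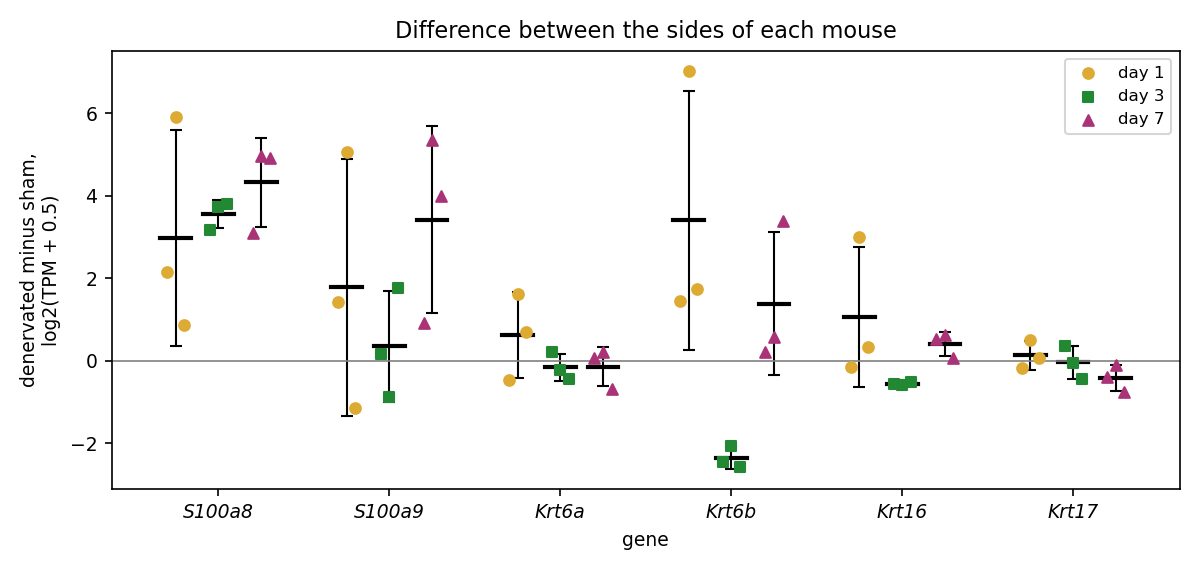
Denervated minus sham difference of log2(TPM + 0.5) for each of the 6 genes, 1 symbol per mouse, with circles for day 1, squares for day 3, and triangles for day 7; bars are the mean and SD of 3 mice. The S100a8 symbols are all above 0, and the day 3 squares of Krt6b and Krt16 are tightly grouped below 0.

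The course from day 1 to day 3 was compared within each side, between different mice. On the sham side all 6 means were higher at day 3, by a log2 difference of 0.24 (Krt17) to 2.20 (Krt6b), and none passed the limma test (adjusted p = 0.645 to 0.963), where 0.047% of 14903 genes passed. An unadjusted p under 0.05 was found for 0 of 6 and for 10.8% of all genes. The sham differences of S100a8 and S100a9 were 0.29 and 0.32, and they were 2.54 and 3.50 without day 1 and day 3 sham replicates 3, with adjusted p = 0.166 and 0.267. On the denervated side Krt6b was lower at day 3 by a log2 difference of -3.57 (SE 1.79, adjusted p = 0.239) and Krt16 of -1.16 (SE 0.56, adjusted p = 0.223). None of the 6 passed the limma test there, although 9.49% of 14794 genes did, and 0 of 6 against 29.6% of all genes had an unadjusted p under 0.05.

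Of these, Krt6b depended on the choice of libraries. Without day 1 denervated replicate 1 its denervated difference between days was -5.60 (limma adjusted p = 0.031), and without the libraries with at least 100 TPM of Krt13 it was 0.48 (adjusted p = 0.858), with 1 library left at day 1. S100a8 on the denervated side differed between days by a log2 value of 0.87 (SE 1.13, adjusted p = 0.650).

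The change of the side difference from day 1 to day 3 was tested as an interaction over all 18 libraries. For Krt6b it was -5.77 on the log2 scale (SE 2.33, limma adjusted p = 0.478, blocked 0.125). For Krt16 it was -1.62 (SE 0.74, adjusted p = 0.533, blocked 0.322). For S100a8 it was 0.58 (SE 1.72, adjusted p = 0.972). Without regard to mouse, none of the 6 passed the limma test, where 0.122% of 14757 genes did. In the same fit Krt6b and Krt16 had an unadjusted p under 0.05, as 9.22% of all genes had.

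Markers of cells that could bring S100a8 and S100a9 into the biopsy were read beside them. Of 15 neutrophil markers, Elane, Fpr1, and Trem1 were under 1 TPM in all 18 libraries, and Ly6g, a defining surface protein of mouse neutrophils, was at 0 in 7 libraries and at 1.11 TPM at most. Other markers of the list reached higher levels, with Retnlg at up to 34.5 TPM and under 1 TPM in 4 libraries. The highest values of Clec4d, Hdc, Ltf, and Csf3r were 12.1, 11.9, 10.3, and 7.99 TPM. The summed level of the 14 markers other than Il1r2, which is also made outside neutrophils, was 6.81 to 56.9 TPM on the sham side and 13.5 to 57.7 TPM on the denervated side at day 3. At day 7 it was 9.74 to 20.5 TPM on the sham side and 11.3 to 32.7 TPM on the denervated side. Within mice, the sum of the 14 was higher on the denervated side in all 3 at day 7 (20.2 to 22.6, 9.74 to 11.3, and 20.5 to 32.7 TPM, sham to denervated) and in 2 of 3 at day 3. With Il1r2 the sums were 69.7 to 136 and 62.4 to 101 TPM at day 3.

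The neutrophil list had no member that passed the limma test at day 1 or day 3, with 7 and 8 of 15 tested. Of those in the comparison, 6 of 7 had lower means on the denervated side at day 1, 6 of 8 at day 3, and 1 of 6 at day 7. S100a9 followed Clec4d, a receptor of neutrophils and monocytes, with a Pearson r of 0.78, and S100a8 with 0.48 (18 libraries). The 10 macrophage markers summed to 228 to 580 TPM on the sham side and 283 to 532 TPM on the denervated side at day 3, and to 239 to 635 and 451 to 902 TPM at day 7. At day 7 the macrophage sum was higher on the denervated side in each mouse (394 to 652, 239 to 451, and 635 to 902 TPM, sham to denervated), as S100a8 was, and at day 3 in 2 of 3. None of the 10 passed between the sides at day 1 or day 3. Of their means, 10 of 10 were lower on the denervated side at day 1, 8 of 10 at day 3, and 1 of 10 at day 7. Cd68, with the largest day 3 difference, was higher on that side by 1.18 (log2, SE 0.42, limma adjusted p = 0.264, blocked 0.076). From day 1 to day 3, 10 of 10 means were higher on the denervated side and 3 passed (6.31% of all genes did). On the sham side 10 of 10 were also higher, and 0 passed. The part of these cells in the S100a8 difference was not tested.

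Keratinocyte lists mostly had lower means on the denervated side at day 3, with sham replicate 3, high in Krt13, included. Of 10 suprabasal markers 10 had lower means and 1 passed, where 1.45% of all genes did. The 1 that passed was Dsc1, a desmosomal cadherin, at 14.1 ± 1.60 against 26.7 ± 1.39 TPM (SD, n = 3), a log2 difference of -0.91 (SE 0.11, limma adjusted p = 0.017). The keratin Krt1 had a log2 difference of -0.59 and the barrier protein gene Flg of -0.66, neither of which passed. The 10 suprabasal markers had the opposite sign at day 7, with 10 of 10 means higher on the denervated side (Krt1 0.97, Krt10 0.95, and Lor 0.85 on the log2 scale). Their summed level was higher on that side in each mouse of day 7, at 6483 against 5870, 5322 against 3402, and 10010 against 4529 TPM, so these markers had the signs of Krt6b and Krt16 at both days. Of 7 basal markers 6 had lower means, with Itgb4 at -0.37, and none passed. The 11 follicle sheath markers had 9 lower means at day 3, led by the inner sheath keratins Krt71 (-1.27), Krt25 (-1.20), and Krt27 (-1.20), and the 6 sebaceous markers had 6 lower means, led by Mc5r (-0.73), with none passing. The 4 stress keratins were lower at day 3 beside these lists, and what part the amount of epidermis had was not tested. On rescaling to the basal keratinocyte markers, the blocked day 3 difference was 3.70 for S100a8 and -2.22 for Krt6b (limma adjusted p = 0.00041 and 0.0022), and for Krt17 it was 0.10 (adjusted p = 0.744). For Krt16 and Krt6a the rescaled log2 differences were -0.42 and -0.016, against -0.56 and -0.16 without rescaling.

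The wider programme of wounded epidermis was described by 33 genes, including the cornified envelope Sprr genes, antimicrobial Defb3, Lcn2, and Slpi, and growth factor genes such as Hbegf and Areg. At day 1, 29 of 32 tested were higher on the denervated side with a median log2 difference of 0.72 against 0.01 over all genes, and 0 passed. At day 3, 18 of 26 tested were lower with a median of -0.38 against -0.01, and 0 passed. At day 7, 25 of 28 were higher with a median of 0.70 against 0.04. These signs are those of Krt6b and Krt16 at each day, and the counts of each day include libraries with high Krt13.

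Lcn2, which encodes an iron-trapping protein of neutrophils and stressed epithelia, was the list member with the largest day 3 difference. Its denervated sides were at 868, 39.8, and 62.7 TPM and its sham sides at 97.9, 18.1, and 16.2 TPM. It was higher on the denervated side in each of the 3 mice, as S100a8 was, with a log2 difference of 2.06 (SE 1.27, limma adjusted p = 0.527, blocked 0.096). Slpi, a protease inhibitor, and Defb3 had day 3 differences of -1.60 and -1.68, which did not pass. Slpi was at 22.1, 10.3, and 203 TPM on the day 3 sham sides, the last in the library high in Krt13. Its denervated sides were at 27.0, 7.80, and 7.38 TPM.

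On the denervated side from day 1 to day 3, 28 of 29 tested wound genes were lower and 4 fell past the test (3.18% of all genes did): Sprr1b, Tgm1, Defb14, and Gjb2. Sprr1b, a cornified envelope precursor, was at 59.8 ± 37.1 TPM at day 1 and 8.45 ± 3.58 TPM at day 3 (log2 difference -2.62, SE 0.53, adjusted p = 0.034). Defb14, an antimicrobial peptide, went from 189 ± 55.1 to 48.3 ± 8.39 TPM (log2 difference -1.93, SE 0.25, adjusted p = 0.015). Without the libraries with at least 100 TPM of Krt13 the count over all genes in this comparison was 24 in place of 1404, with 1 library left at day 1.

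Other genes of the S100 family had mixed signs. Of 11 tested, 3 were higher and 8 lower at day 3, and 0 passed, while 4 were higher and 7 lower at day 7. S100a7a, another skin S100 gene, was at 12.2 ± 5.06 TPM on the denervated side and 36.9 ± 19.0 TPM on the sham side (log2 difference -1.50, SE 0.48, limma adjusted p = 0.225), opposite in sign to S100a8. At day 7 S100a7a had the sign of S100a8, at 28.1 ± 7.61 against 10.4 ± 7.88 TPM without overlap (log2 difference 1.59). S100a3, a hair cuticle protein, and S100a14 had day 3 differences of -0.60 and -0.41. S100a14 fell from 643 to 400 TPM between days 1 and 3 on the denervated side (log2 difference -0.69, SE 0.11, adjusted p = 0.021).

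Receptors and signalling genes of calprotectin and the cytokines around it gave few differences. Tlr4, a receptor for S100A8, was at 3.23 ± 0.22 TPM on the denervated side and 1.58 ± 0.91 TPM on the sham side at day 3, with no overlap (log2 difference 0.93, SE 0.32, limma adjusted p = 0.252). Between days 1 and 3 on the denervated side Tlr4 rose by 0.92 on the log2 scale (SE 0.18, adjusted p = 0.031). Bsg, another S100A9 receptor, and Cd36 differed at day 3 by 0.30 and -0.30, which did not pass. From day 1 to day 3 on the denervated side 1 of 8 genes of the list rose (6.31% of all genes did) and 2 fell (3.18% of all genes did). Those that fell were Nfkbia and Nfkbiz, which are targets and regulators of NF-kB, by -0.47 and -0.79 on the log2 scale (adjusted p = 0.030 and 0.016).

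Of the alarmin cytokines 6 were in the table under their list names and 6 were tested, of which Il33 (0.40), Il1b (-0.36), and Il1a (-0.18) had the largest day 3 log2 differences and none passed. Of 16 IL-17 and neutrophil chemokine genes 7 were tested at day 3. Ccl2, which attracts monocytes, had a log2 difference of 1.16 (SE 0.20, limma adjusted p = 0.056, blocked 0.035). Cxcl2 (-0.91) and Ccl20 (-0.49), which attract neutrophils and lymphocytes, did not pass.

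The genes most like S100a8 over the 18 libraries, on the log2(TPM + 0.5) scale among 14757 genes, were Alpk2 and Myf6 (both with Pearson r = 0.91), Ankrd1 (0.88), Gprc5c (0.87), and Ankrd2 (0.86). Of these, Myf6 is a muscle transcription factor, Alpk2 encodes a kinase, and Ankrd1 and Ankrd2 encode muscle ankyrin repeat proteins. At day 3 Ankrd1 was at 2.32 to 8.13 TPM on the sham side and 138 to 217 TPM on the denervated side. Myf6 was at 28.9 to 39.3 TPM on the sham side and 121 to 155 TPM on the denervated side. Both were separate between the sides at days 3 and 7, as S100a8 was, and points from 1 side share the lesion, so the r values describe these libraries only. With summed marker levels S100a8 had an r of 0.43 (macrophage), 0.35 (skeletal muscle), 0.10 (neutrophil), -0.06 (mucosal keratinocyte), -0.21 (follicle sheath), and -0.47 (basal keratinocyte).

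The genes most like the mean of the 4 keratins on the log2 scale were Gsdma2 (Pearson r = 0.88), Cbr3 (0.86), Wfdc12 and Slpi (0.85 each), and Cxcl1 (0.84). Krt6b, with its 519-fold range, weighs more in this mean than Krt6a and Krt17. Wfdc12 and Slpi were also among the 5 genes most like Krt6b alone (0.89 and 0.87), and their Spearman rho with the mean was 0.68 and 0.69. Gsdma2 is a gasdermin of skin, and Wfdc12 and Slpi are antiproteases of stressed epithelium. Slpi was at 247 and 347 TPM in day 1 denervated replicates 3 and 2 and at 203 TPM in day 3 sham replicate 3, which are the libraries with the highest Krt13 and Krt6b. Among the keratins themselves, Krt6a had an r of 0.75 with Krt16 and 0.71 with Krt17, and Krt6b had 0.68 with Krt16 and -0.08 with Krt17. S100a8 had an r of -0.38 with Krt17 and -0.05 with Krt6a.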

How the data were processed

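RNA-seq was done on both whisker pads of 9 mice. Per the labels, reads were called with bcl2fastq 2.17.1.14 and assigned to GRCm38 cDNA with kallisto 0.43.1, and TPM were taken through sleuth. Reads had been deduplicated and trimmed by the authors, so very abundant short mRNAs such as S100a8 may be undercounted. The deposited table holds 1 signal value per transcript and library, TPM normalized between samples by the authors. Library sums ran from 833186 to 1143839 between libraries, so the values are no longer plain TPM. Columns were matched to samples by title, by the run index for day 7 where the names differ, and 0 columns were left unmatched.

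Of 113194 transcripts, 98.5% matched GENCODE vM21 and were summed by gene. The table keeps no counts. Steps in the low values of long genes put the depth at about 10354673 to 32182986 reads, an estimate in which 71.0% to 79.2% of values lay within 0.1 of a whole read, where chance gives 20%. No counts were used, so no counting intervals are given.

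Genes with at least 1 TPM in 47% of the libraries compared were tested on log2(TPM + 0.5) with limma 3.58.1 (trend) in R 4.3.3, and p-values were adjusted by Benjamini-Hochberg over all genes tested. Fold changes on this scale understate those of low genes. Days 1 and 3 were tested, and day 7 was described. Each SE given is that of the limma fit without regard to mouse. Sides of 1 mouse share a number in the sample titles, and their residuals correlated at 0.13 to 0.51 in all 9 pairs, so the sides are paired by mouse and blocked values are given where they change a call. Replicates are separate mice.

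The 6 genes and the 13 gene lists were chosen with earlier results of these data known, and the mucosal keratins after their values were seen. The text names the 6 genes, list genes that passed between the sides, and the 5 genes most like S100a8 and the keratin mean. The 3 genes with the largest day 3 difference are named for the wound, S100, alarmin cytokine, receptor, chemokine, suprabasal, and follicle sheath lists. For the other lists they are not all named. List genes that passed from day 1 to day 3 on the denervated side are not all named either. Genes of the day 1 to day 3 course, Krt13, Krt4, and the single neutrophil markers were named after their values were seen. Alternatives were other pseudocounts, filters, scalings, fits, and transcripts, and each library left out. Leaving out the libraries with at least 100 TPM of Krt13, mouse 3 of day 3, and the block with rescaling were chosen after seeing the data. Tests were checked on simulated data. Sequences came from RefSeq (promoters) and GENCODE (transcripts). Python 3.11.15, pandas 2.3.3, and numpy 2.4.6 were used.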

Additional observations from a re-analysis of the deposited data

Results flagged for a closer look

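Krt6b and Krt16 were singled out because every mouse of day 3 had less of them on the denervated side and every mouse of day 7 had more. The mean within-mouse log2 difference at day 7 minus that at day 3 was 3.75 for Krt6b and 0.96 for Krt16. At day 7 replicate 3 carried the Krt6b value, at 12.6-fold against 1.19-fold and 1.61-fold in the others, and the day 7 mean log2 difference fell from 1.38 to 0.35 without its denervated library. The 10 suprabasal keratinocyte markers also had 10 lower means at day 3 and 10 higher means at day 7, and their part was not tested. The difference between the days was not tested, since day 7 led to the choice of the genes. The mice of the days are different animals, and the 3 denervated libraries of day 3 had under 10 TPM of Krt13 while day 3 sham replicate 3 and day 7 sham replicate 2 had 2201 and 937 TPM, whose part was not tested.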

How the results depend on the processing

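Of 575 alternative values for 36 results on the 6 genes, 541 counted as the same. In the tested comparisons this means the same direction and side of the threshold. At day 7, which had no test, it means a shift smaller than the SD of the within-mouse differences, whatever the direction. With the mouse as a block (replicate block), the day 3 differences of S100a8 (3.56) and Krt6b (-2.36) passed the test. In that day 3 fit 2793 of 14943 genes had an unadjusted p under 0.05, against 2196 without the block. The 68 genes called in the interaction with the block were more than the 18 without it. The block changed no other call among the 6 genes. The causes below were not tested, apart from fewer samples where libraries were left out.

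Genes called at day 1 were 0, and 2 with equal sums, 29 with all 18 samples in 1 fit, 6 without the trend, and 0 to 1 with 1 library left out. At day 3 they were 217, and 134 without the filter, 73 without the library high in Krt13, 53 in the block without mouse 3, 339 in the block with rescaling to basal keratinocyte markers, and 49 to 152 with 1 library left out. Genes without overlap at day 7 were 2657, and 3248 to 5336 with 1 library left out. Sham day 3 against day 1 gave 7, and 35 with keratinocyte rescaling, 0 with all 18 samples (1984 at an unadjusted p under 0.05), 1 without the Krt13-high libraries, and 2 to 32 with 1 left out. Denervated day 3 against day 1 gave 1404, and 596 without the filter, 932 with equal sums, 2179 with keratinocyte rescaling, 868 for the main transcript, 24 without the Krt13-high libraries, and 60 to 1455 with 1 left out.

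In the tested comparisons direction turned in 27 values, none of which passed the test. At day 7 Krt6a also turned, from -0.14 to 0.16, in 1 alternative. With 1 library left out, the log2 difference ran from -0.070 to 0.42 for Krt17 at day 1, from -1.06 to 1.22 for S100a9 at day 3, and from -0.16 to 0.096 for Krt17 at day 3. Between days it ran from -0.58 to 1.82 for S100a8 and from -0.89 to 2.09 for S100a9 on the sham side, and from -0.42 to 1.68 for S100a8 and from -0.054 to 0.21 for Krt17 on the denervated side. Keratinocyte rescaling turned Krt17 at day 3 to 0.10, with and without the block, and equal sums turned it to -0.074 on the denervated side between days. In the block without mouse 3, S100a9 was at -0.37 and Krt17 at 0.16. Without the Krt13-high libraries S100a9 was at -1.06 and Krt17 at 0.025 at day 3, and on the denervated side between days S100a9 was at 1.67, Krt6b at 0.48, and Krt17 at -0.21. With 3 mice a day, differences that vary between mice as widely as those of day 1 cannot be resolved.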
